A study of Mus musculus with 6 samples.

Results

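Translesion synthesis copies DNA past damaged or missing bases, and the genes of its DNA polymerases were compared between mouse B cells of the germinal center (GC) and naive B cells at rest. The set held 8 of the 39179 genes with an expression value: Polh, Poli, Polk, Polq, Rev1, Rev3l and Mad2l2, which encode polymerases or polymerase subunits, and Rad18, which encodes a ubiquitin ligase that acts before them. The genes were chosen by name, for what their products do, with earlier results of these data known. Each was matched by its gene symbol to 1 identifier. RNA was measured by RNA-Seq in 6 libraries, 3 of Fas+GL7+ GC B cells and 3 of Fas-GL7- naive B cells. The cells came from ileal Peyer's patches, the gut lymphoid tissue in which microbes and food keep GCs active, of 12-week-old female WT C57BL/6 littermates, and each library was made from a pool of 5 mice. The labels name no transgene, knockout or treatment, and a pool of mice hides the variation between its animals.

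Replicative DNA polymerases stop at lesions. Rad18 then attaches ubiquitin to PCNA, the ring that holds polymerases on DNA, and the modified ring recruits low-fidelity enzymes that insert a base opposite the lesion or extend from it. In GC B cells some of the same enzymes write mutations into antibody genes. Uracils arise in the DNA, uracil and mismatch repair proteins open the DNA around them, and error-prone polymerases fill it in during somatic hypermutation. Pol eta (Polh) is best known there for mutations at A:T pairs and Rev1 for mutations at C:G pairs.

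Expression is given in TPM, transcripts per 1000000 transcripts, a level per transcript length that allows different genes to be set side by side. GC and naive pools were compared with limma on log2(TPM + 1), a scale that understates the change of genes at a few TPM, and a gene was called changed at a Benjamini-Hochberg adjusted p under 0.05 over the 12785 genes that reached 1 TPM in 3 or more of the 6 pools. All 8 genes passed this filter, each with at least 1 TPM in all 6 pools. Depth, estimated from the steps between low values, was about 9800000 to 10700000 reads per GC pool and 10000000 to 15800000 reads per naive pool. With the longest annotated transcript of each gene, this put every one of the 8 genes on about 120 estimated reads or more in each pool. The fewest were those of Polk and Polq in naive cells, and shorter transcripts would give lower estimates. The sort was visible in the markers: 6 GC markers summed to between 1410 and 1438 TPM in GC pools and to between 51.6 and 57.5 TPM in naive pools, while 5 naive markers summed to between 109 and 120 TPM and between 1542 and 1633 TPM. Defining T cell markers reached at most 3.51 TPM in sum in any pool.

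Of the 8 genes, 6 rose in GC B cells, Poli fell and Polk was not called; in 9 of 15 alternative analyses the count that rose was 5, because Mad2l2 was no longer called. The background has to be read beside these counts, because the populations differed in most genes: 65.6% of all genes tested were called, 35.5% as higher in GC B cells and 30.1% as lower. The 8 genes had a median log2 difference of 1.42, against 0.031 for all genes tested. Polh rose by more than any other of the 8, and only 2.46% of all genes tested rose further. The ranges of the 3 GC pools and the 3 naive pools did not overlap for 7 of the 8 genes, Polk being the exception, and this was so for 70.7% of all genes tested.

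**Figure D1:**
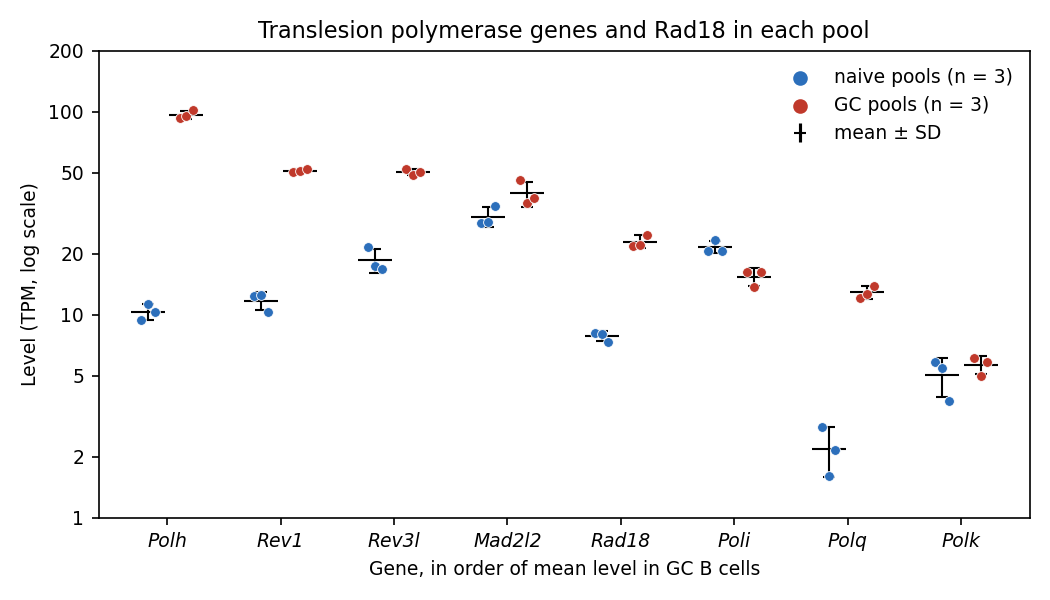
Level of each gene in TPM (log axis) in the 3 GC pools and the 3 naive pools. Points are pools and horizontal lines are means. Polh, Polq, Rev1, Rev3l and Rad18 stood clearly higher in every GC pool, Mad2l2 did so by a narrow gap, Polk overlapped and Poli was lower in every GC pool.

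**Figure D2:**
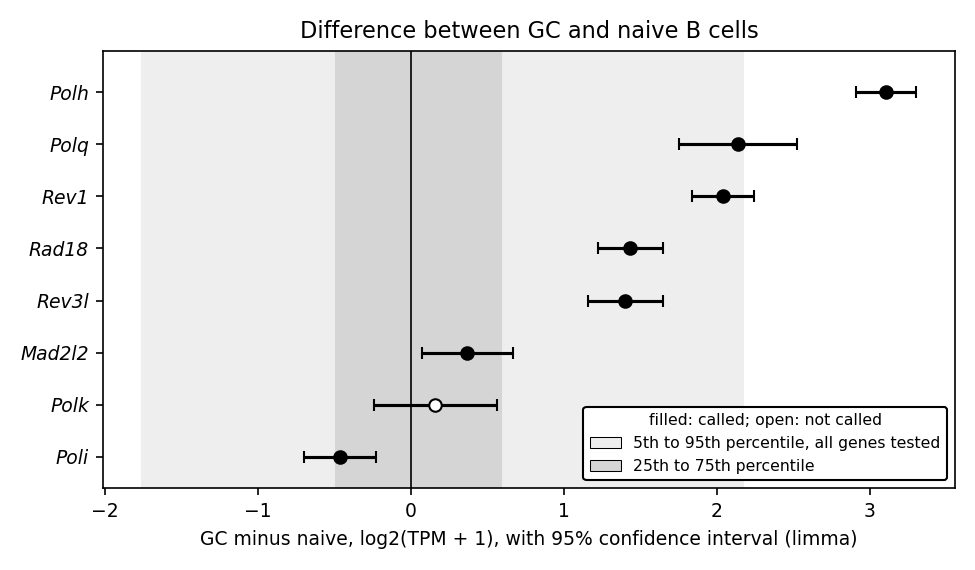
Difference between GC and naive B cells in log2(TPM + 1) with the 95% confidence interval from limma, from Polh at 3.11 to Poli at -0.46. Filled points passed an adjusted p of 0.05, and the bands give the spread of all 12785 genes tested.

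Among the Y-family polymerases, which insert bases opposite damaged templates with little proofreading, Polh changed most. Polh (ENSMUSG00000023953; GRCm38, chromosome 17, 46171355 to 46202641, minus strand) reached 92.8, 95.3 and 102 TPM in GC pools 1 to 3 and measured 9.40, 11.3 and 10.3 TPM in naive pools 1 to 3. Every GC pool was far above every naive pool, and the means were 96.5 ± 4.54 TPM and 10.3 ± 0.934 TPM (SD, n = 3 each), a ratio of 9.35. The log2 difference was 3.11 ± 0.0806 (SE; limma, adjusted p = 5.10e-07). Within its pool, Polh stood between the 85.2 and 86.9 percentile of genes with at least 1 TPM in GC B cells and between the 31.6 and 35.2 percentile in naive B cells.

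Rev1 (ENSMUSG00000026082; chromosome 1, 38052786 to 38129921, minus strand) encodes a deoxycytidyl transferase that also serves as the scaffold on which other translesion polymerases meet. It measured 50.7, 51.0 and 52.1 TPM in GC pools 1 to 3, against 12.3, 12.5 and 10.4 TPM in naive pools 1 to 3. The GC pools differed among themselves by less than 2 TPM, the tightest of the 8 genes with a coefficient of variation of 1.45%, and their mean was 4.37 times the naive mean. The log2 difference was 2.04 ± 0.0841 (SE; limma, adjusted p = 3.18e-06).

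Poli (ENSMUSG00000038425; chromosome 18, 70508680 to 70534950, minus strand) encodes Pol iota, the closest relative of Pol eta among these genes, which misinserts G opposite template T. It measured 16.3, 13.7 and 16.3 TPM in GC pools 1 to 3, against 20.7, 23.3 and 20.7 TPM in naive pools 1 to 3. All GC pools were below all naive pools, with means of 15.4 ± 1.51 TPM and 21.6 ± 1.48 TPM (SD, n = 3). The log2 difference was -0.46 ± 0.0974 (SE; limma, adjusted p = 0.00585), and 73.9% of all genes tested had a higher log2 difference. Polh and Poli thus moved in opposite directions, and the TPM ratio of Polh to Poli was 5.70, 6.96 and 6.22 in the GC pools and 0.454, 0.484 and 0.498 in the naive pools.

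Polk (ENSMUSG00000021668; chromosome 13, 96480687 to 96542579, minus strand) encodes Pol kappa, which bypasses bulky adducts and extends mispaired ends. It measured 6.16, 5.02 and 5.87 TPM in GC pools 1 to 3, against 5.83, 5.49 and 3.78 TPM in naive pools 1 to 3. The ranges overlapped, and only naive pool 3 stood below all the others. The log2 difference of 0.16 had a 95% interval from -0.24 to 0.56 (limma, adjusted p = 0.431), so that a change of up to 1.48-fold up or 1.18-fold down on the TPM + 1 scale was not resolved.

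Pol zeta extends DNA from the bases that the Y-family enzymes insert. Its catalytic subunit is encoded by Rev3l (ENSMUSG00000019841; chromosome 10, 39731561 to 39875211, plus strand), which measured 52.2, 48.7 and 50.6 TPM in GC pools 1 to 3, against 21.5, 17.5 and 16.7 TPM in naive pools 1 to 3. All GC pools were well above all naive pools. The means differed 2.72-fold, with a log2 difference of 1.40 ± 0.101 (SE; limma, adjusted p = 4.02e-05).

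Mad2l2 (ENSMUSG00000029003; chromosome 4, 148130158 to 148145704, plus strand) encodes Rev7, the small subunit that links Rev3l to Rev1 and that also belongs to shieldin, a complex that protects broken DNA ends in class switching. It measured 46.0, 35.5 and 37.7 TPM in GC pools 1 to 3, against 28.4, 28.5 and 34.4 TPM in naive pools 1 to 3. The gap between the lowest GC pool and the highest naive pool was about 1 TPM. The log2 difference was 0.37 ± 0.123 (SE; limma, adjusted p = 0.0357), and this call was lost in 9 of the 15 alternative analyses. Leaving out a pool ended it for GC pool 1 (0.26, limma, adjusted p = 0.0883), GC pool 3 (0.40, adjusted p = 0.0611), naive pool 1 (0.32, adjusted p = 0.102) and naive pool 2 (0.33, adjusted p = 0.103). The TPM ratio of Rev3l to Mad2l2, subunits of the same enzyme, was 1.28 ± 0.130 in the GC pools and 0.619 ± 0.135 in the naive pools (SD, n = 3), without overlap (exact permutation test, p = 0.1, the smallest that 3 pools against 3 allow).

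Pol zeta shares 2 accessory subunits with the replicative Pol delta. Pold2 was at 74.9 ± 2.50 TPM in GC B cells against 44.6 ± 9.83 TPM in naive ones (SD, n = 3), a log2 difference of 0.76 (limma, adjusted p = 0.00473). Pold3 was at 65.1 ± 0.757 TPM and 38.2 ± 2.44 TPM, also a log2 difference of 0.76 (limma, adjusted p = 7.10e-05). Both rose, with estimates between those of Mad2l2 and Rev3l.

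Polq (ENSMUSG00000034206; chromosome 16, 37011741 to 37095419, plus strand) encodes Pol theta, an A-family polymerase with a helicase domain that joins DNA ends at short stretches of homology and can also pass lesions. It measured 12.1, 12.7 and 13.9 TPM in GC pools 1 to 3, against 2.81, 1.60 and 2.17 TPM in naive pools 1 to 3. It was the lowest of the 8 genes in naive B cells, where its coefficient of variation was 27.5%, and it did not overlap with its GC range. The means were 12.9 ± 0.903 TPM and 2.19 ± 0.604 TPM (SD, n = 3), and the log2 difference was 2.14 ± 0.160 (SE; limma, adjusted p = 4.71e-05).

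Rad18 (ENSMUSG00000030254; chromosome 6, 112619851 to 112696691, minus strand), the ligase that puts ubiquitin on PCNA, measured 21.9, 22.01 and 24.9 TPM in GC pools 1 to 3, against 8.14, 8.06 and 7.36 TPM in naive pools 1 to 3. The populations were well separated, with means of 22.9 ± 1.68 TPM and 7.85 ± 0.430 TPM (SD, n = 3). The log2 difference was 1.43 ± 0.0880 (SE; limma, adjusted p = 1.93e-05). Its target Pcna was at 642 ± 13.3 TPM and 119.7 ± 1.99 TPM, a log2 difference of 2.41 (limma, adjusted p = 1.14e-07), and Usp1, whose product removes the ubiquitin again, was at 106 ± 5.55 TPM and 39.3 ± 6.77 TPM, a log2 difference of 1.42 (limma, adjusted p = 8.84e-05).

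The sequences just upstream of 4 of these genes are shown because Polh and Polk each share a short stretch with a neighbouring gene read in the opposite direction, and because Polq and Rad18 rose and have no protein-coding neighbour as near, although the lncRNA Gm35824 overlaps the start of Rad18 by 24 bases. Each is written 5′ to 3′ on the strand of the gene and ends at the base before the gene's start in RefSeq (GRCm38.p6). Capitals mark the letters of motifs that were searched on both strands: GCATGCGC (NRF1), CGGAAG (ETS) and GGGCGG (SP/KLF), with their reverse complements. The Polh stretch is chr17:46202642-46202810 (minus strand), that of Polk chr13:96542580-96542708 (minus strand), that of Polq chr16:37011571-37011740 (plus strand) and that of Rad18 chr6:112696692-112696861 (minus strand).
Polh: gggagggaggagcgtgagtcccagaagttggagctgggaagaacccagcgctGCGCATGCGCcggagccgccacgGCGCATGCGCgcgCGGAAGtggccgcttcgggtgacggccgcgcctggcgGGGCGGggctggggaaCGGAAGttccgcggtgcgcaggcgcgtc
Polk: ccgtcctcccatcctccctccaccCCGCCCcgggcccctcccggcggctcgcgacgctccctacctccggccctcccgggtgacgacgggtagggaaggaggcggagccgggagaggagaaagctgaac
Polq: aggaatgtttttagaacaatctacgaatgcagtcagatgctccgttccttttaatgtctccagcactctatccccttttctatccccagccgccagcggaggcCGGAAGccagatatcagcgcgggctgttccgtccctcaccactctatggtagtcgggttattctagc
Rad18: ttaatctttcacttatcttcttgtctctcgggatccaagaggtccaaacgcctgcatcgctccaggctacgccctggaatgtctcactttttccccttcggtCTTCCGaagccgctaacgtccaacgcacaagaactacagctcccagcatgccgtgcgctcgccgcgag

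The stretch before Polh is 169 bases long and 74.6% G and C, and holds the NRF1 letters at 2 places, where the motif overlaps its own reverse complement, together with 2 ETS matches and 1 SP/KLF match. Of 32851 RefSeq windows of 300 bases around gene starts, 2.71% held the NRF1 letters, 16.9% the ETS letters and 35.7% the SP/KLF letters. Such windows were matched for 6 of the 8 genes, Polh, Polk, Polq, Rev1, Mad2l2 and Rad18, with more than 1 window for Polk, Mad2l2 and Rad18. The ETS letters were in the windows of Polh, Polq and Rad18, and the SP/KLF letters in those of Polh, Polk, Rev1 and Mad2l2. The stretch before Polk, of 129 bases and 74.4% G and C, held 1 SP/KLF match. Letters tied to cell-cycle genes were also searched: E2F letters were found for Polq (TTCCCGC, in 4.60% of all windows) and for Mad2l2 (TTGGCGC, in 2.45%), the CHR letters TTTGAA for Polq (17.9%), the NF-Y letters CCAAT for Mad2l2 (37.4%) and the E-box CACGTG for Rev1 (7.15%). The E2F and NF-Y letters of Mad2l2 were in different windows, and the SP/KLF letters of Polk in only 1 of its windows. The percentages are shares of windows, not of genes. A match describes the letters only and says nothing of binding.

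The neighbours of Polh and Polk across these stretches were both lower in GC B cells. Xpo5, which encodes an exporter of microRNA precursors and starts 169 bases from Polh, measured 12.1, 12.9 and 13.5 TPM in GC pools 1 to 3, against 23.2, 23.8 and 20.2 TPM in naive pools 1 to 3. It was lower in every GC pool, with a log2 difference of -0.76 (limma, adjusted p = 4.05e-04), opposite to Polh. Cert1, a ceramide transporter gene that starts 129 bases from Polk, was at 17.9 ± 1.21 TPM in GC B cells against 24.1 ± 1.61 TPM in naive ones (SD, n = 3), a log2 difference of -0.40 (limma, adjusted p = 0.00540). Fbxo6, which lies 11 bases from Mad2l2, was at 13.3 ± 3.20 TPM and 18.8 ± 2.73 TPM and was not called (log2 difference -0.49, limma, adjusted p = 0.0658).

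The reads of Rev1 are less certain, since Eif5b, a translation initiation factor gene on the opposite strand, overlaps its end. In an older annotation, 1239 of the 4261 exonic bases of Rev1 were shared with exons of Eif5b, and whether strand was used in counting is not stated. Eif5b was at 31.5 ± 1.34 TPM in GC B cells against 19.1 ± 0.951 TPM in naive ones (SD, n = 3), a log2 difference of 0.70 (limma, adjusted p = 1.75e-04), beside 2.04 for Rev1. The part of shared reads in the Rev1 difference was not tested. The lncRNA E130307A14Rik, which overlaps the start region of Rev3l on the other strand, was at 29.0 ± 2.41 TPM and 31.5 ± 3.40 TPM and was not called (limma, adjusted p = 0.355).

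The order of the genes was not the same in the populations. In GC B cells Polh was highest, followed by Rev1 and Rev3l, whose ranges overlapped, then Mad2l2, Rad18, Poli and Polq, of which the last pair overlapped, and Polk. In naive B cells Mad2l2 was highest, followed by Poli and Rev3l, which overlapped, Rev1 and Polh, which overlapped too, and Rad18, Polk and Polq. Neighbours in these orders that are not named as overlapping had separate ranges over 3 pools. Together the 8 genes summed to between 284 and 303 TPM in the GC pools and to between 106 and 109 TPM in the naive pools, 2.74 times more in GC B cells, and 2.04 times more when Polh was left out.

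As a share of the summed TPM of the 8 genes, Polh took between 31.1 and 33.6% in the GC pools and between 8.61 and 10.4% in the naive pools. Poli went the other way, with 4.82 to 5.46% in GC and 19.0 to 21.5% in naive B cells. The share of Mad2l2 was also smaller in GC pools, at 12.4 to 15.4% and 26.0 to 32.5%, although its own level was higher in every GC pool. Rev1 held 17.0 to 17.97% and 9.80 to 11.5%, and Polq 4.07 to 4.59% and 1.48 to 2.57%. Polk took 1.77 to 2.07% in GC pools and 3.57 to 5.34% in naive pools, although its own level was not called as changed. The shares of Rev3l overlapped, at 16.7 to 17.5% and 15.8 to 19.7%, and those of Rad18 overlapped at their edges, at 7.36 to 8.21% and 6.95 to 7.46%.

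**Figure D3:**
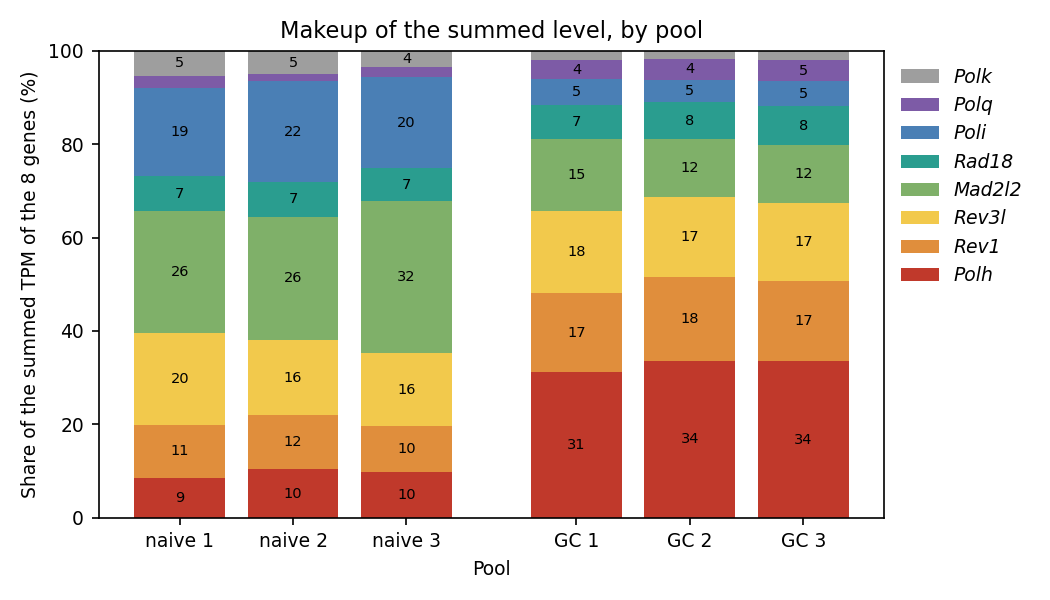
Share of each gene in the summed TPM of the 8 genes, in percent, for each of the 3 GC and 3 naive pools. Polh held 8.61 to 10.4% in naive pools and 31.1 to 33.6% in GC pools, while Poli and Mad2l2 held smaller shares in GC pools.

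Ratios between genes of the same pool depend little on how pools are scaled, and all 28 pairs were compared as differences of log2(TPM + 1). For 25 pairs the GC and naive pools did not overlap (26 with 0.1 in place of 1 added to TPM), and each of these had p = 0.1 in a two-sided exact permutation test (adjusted p = 0.112 over the 28 pairs). With 3 pools against 3 this is the smallest p the test can give, so no pair could reach 0.05. The pairs share genes, so the 28 comparisons are not independent. How often ratios between other genes fail to overlap was not tested, so the count of 25 cannot be called particular to this set. Taken singly, 70.7% of all genes tested had ranges that did not overlap. The largest shift was that of Polh against Poli, by 3.57. Polh also shifted against Rev1, by 1.07, with a TPM ratio of 1.88 ± 0.0609 in GC and 0.887 ± 0.117 in naive B cells (SD, n = 3).

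In 3 pairs the ratios overlapped. Rev3l and Rad18 differed in their shift by -0.031 (exact permutation test, p = 0.7), with Rev3l at 2.21 ± 0.173 times Rad18 in GC and 2.36 ± 0.249 times Rad18 in naive B cells (SD, n = 3). Polq and Rev1 differed by 0.096 (exact permutation test, p = 0.9), but this value depends on the 1 TPM added to a gene near 2 TPM: with 0.1 added the shift was 0.41, and the plain TPM ratios of Polq to Rev1 did not overlap, at 0.239, 0.249 and 0.267 in GC pools 1 to 3 and 0.228, 0.128 and 0.209 in naive pools 1 to 3. Polk and Mad2l2 differed by -0.21 (exact permutation test, p = 0.4). A test with 3 pools a side does not show that such ratios are equal.

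**Figure D4:**
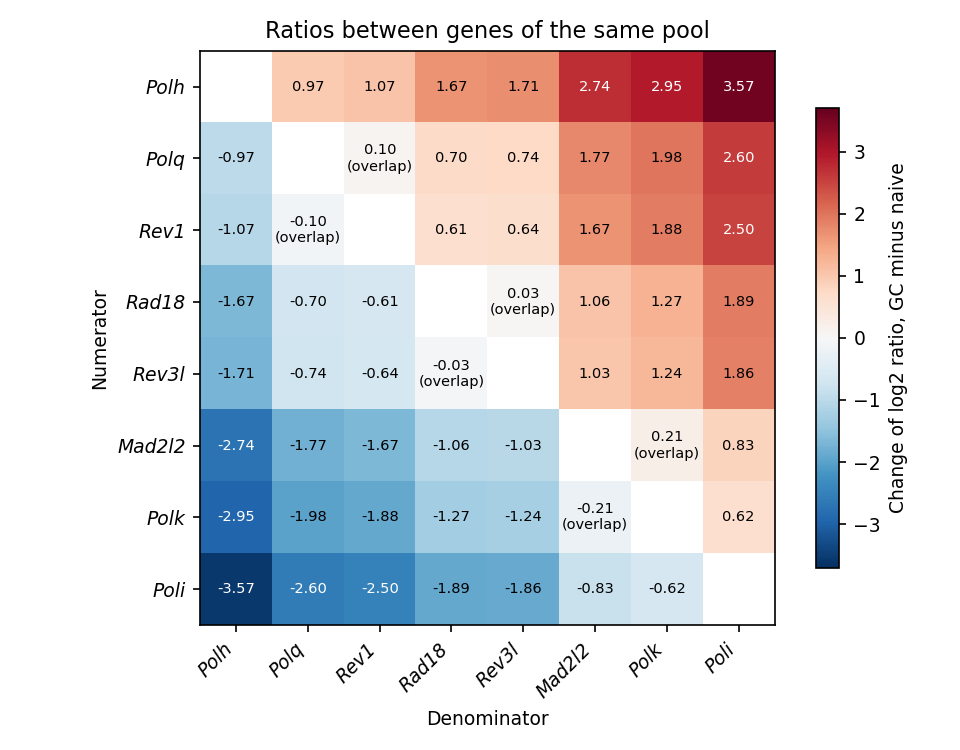
Change of the log2 ratio between each pair of the 8 genes from naive to GC B cells, as the row gene over the column gene on log2(TPM + 1), over 3 pools a population. The Polh row holds the largest values, up to 3.57 against Poli, and the values nearest 0 on this scale are those of Rev3l with Rad18 (-0.031) and Polq with Rev1 (0.096, or 0.41 with 0.1 added to TPM).

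The genes whose pattern over the 6 pools lay closest to each of the 8 were found among all genes tested, by the root mean square difference of centred log2(TPM + 1) values. The closest to Polh was Ezh2 (0.054), a histone methyltransferase gene, at 146, 150.2 and 165 TPM in GC and 15.5, 17.3 and 18.1 TPM in naive pools. The closest to Rev1 was Msh6 (0.025), which encodes a mismatch recognition protein of hypermutation and was at 92.9 ± 1.42 TPM and 22.2 ± 2.02 TPM (SD, n = 3). The closest to Rad18 was Sccpdh, to Rev3l Siah1b, to Poli Edem2, to Polk Gtf2h2, to Polq 4930579G24Rik and to Mad2l2 C030037D09Rik. Within the set, Rev3l and Rad18 were nearest to each other (0.105), with 55 genes nearer to Rev3l and 126 nearer to Rad18. With 6 pools in 2 groups, likeness of this kind is mostly likeness of the GC to naive difference.

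The other genes of the PCNA ubiquitin cycle, a list of 25 that includes Pcna and Usp1, were also mostly higher in GC B cells: 18 rose, 2 fell and 5 were not called, beside 35.5% and 30.1% of all genes tested, with a median log2 difference of 0.91 against 0.031. The largest rises were those of Dtl, which directs PCNA-bound proteins to destruction, at 44.5 ± 4.24 TPM against 0.586 ± 0.0904 TPM (log2 difference 4.84, limma, adjusted p = 3.22e-07), although Dtl passed the filter on low values through the GC pools only, and of Atad5, which unloads PCNA (2.78, limma, adjusted p = 2.71e-06). The 2 genes that fell were Hltf (-0.33, limma, adjusted p = 0.0134) and Shprh (-0.70, limma, adjusted p = 0.00120). Both encode ligases that extend the ubiquitin set by Rad18 into a chain, a modification known for template switching, which avoids mutations. Shprh measured 8.35, 8.35 and 8.06 TPM in GC pools 1 to 3, against 14.2, 15.6 and 12.3 TPM in naive pools 1 to 3, so the populations did not overlap.

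Of 12 genes of the replicative polymerases, 11 rose, none fell and Pole4 was not called, beside 35.5% of all genes tested that rose, with a median log2 difference of 1.36. Pole, the catalytic subunit of Pol epsilon, was at 59.7 ± 2.72 TPM in GC B cells against 5.24 ± 0.106 TPM in naive ones (SD, n = 3; log2 difference 3.28, limma, adjusted p = 2.81e-07), and Pole2 rose by 3.20 on the log2 scale (limma, adjusted p = 8.07e-06). Among the smallest rises, Pold1, the catalytic subunit of Pol delta, went from 219 ± 17.7 TPM in naive to 322 ± 9.81 TPM in GC B cells (0.55, limma, adjusted p = 3.80e-04), and Pold4 rose by 0.31 on the log2 scale (limma, adjusted p = 0.00101). The rise of Polh was thus close in size to that of Pole, and no test of their difference was made.

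Of 10 genes that act before the polymerases in hypermutation, 8 rose, Smug1 fell and 1 was not called, beside 35.5% and 30.1% of all genes tested, with a median log2 difference of 1.21. Of the 8, 2 passed the filter on low values through the GC pools only, Exo1 among them. For these, every GC pool had to be above every naive pool. Exo1, the exonuclease that opens the gap for Pol eta, was at 11.0 ± 0.928 TPM against 0.692 ± 0.130 TPM (SD, n = 3; 2.83, limma, adjusted p = 3.86e-06), and Pms2 rose by 0.56 on the log2 scale (limma, adjusted p = 0.00219). Smug1, a uracil glycosylase gene, was at 5.51 ± 0.506 TPM in GC B cells against 10.02 ± 0.824 TPM in naive ones (-0.76, limma, adjusted p = 9.89e-04).

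**Figure D5:**
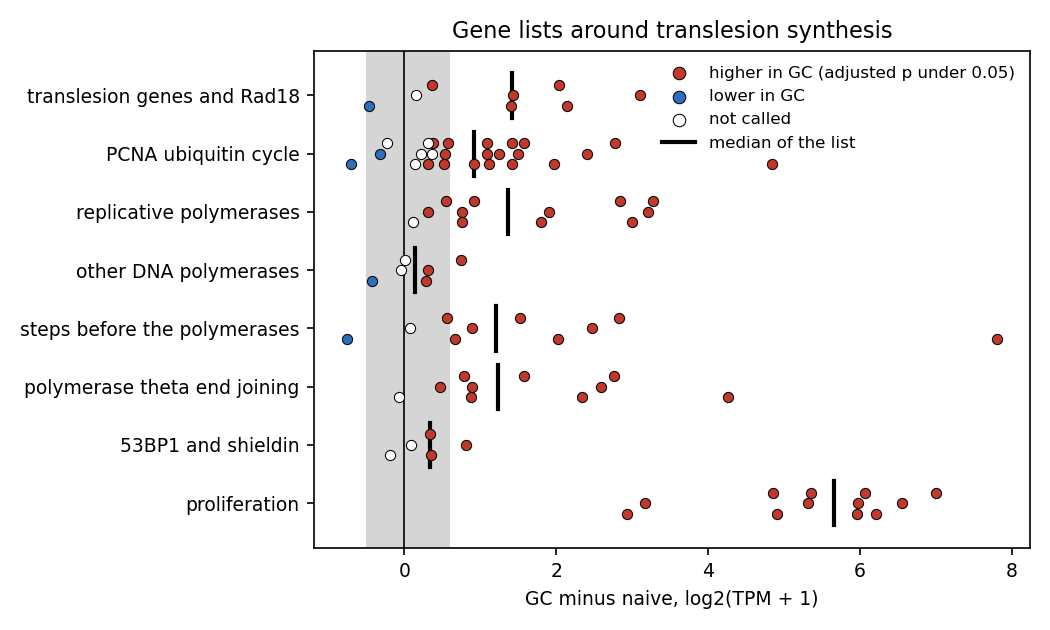
Difference between GC and naive B cells in log2(TPM + 1) for every tested gene of the lists, 1 point a gene, with the median of each list as a bar and the interquartile range of all genes tested as a grey band. The medians were 1.42 for the 8 translesion genes, 0.91 for the PCNA ubiquitin cycle, 1.36 for replicative polymerases, 0.15 for other DNA polymerases 1.21 for the genes upstream in hypermutation and 5.66 for proliferation genes.

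Proliferation genes were compared in the same way. All 12 listed were called higher in GC B cells, beside 35.5% of all genes tested. Of these, 3 (Mki67, Cdk1 and Bub1) passed the filter on low values through the GC pools only. For these 3, every GC pool had to be above every naive pool. Summed levels were between 2053 and 2121 TPM in GC pools and between 68.98 and 71.2 TPM in naive pools. The extremes of the list were Mki67 (7.01), Cdk1 (6.55), Mcm5 (3.17) and Mcm2 (2.94 on the log2 scale, limma, largest adjusted p = 2.90e-07). The part of the proliferation genes in the rise of the translesion genes was not tested. In sorted bulk pools a larger share of cells with a transcript and more transcript per cell cannot be told apart. Transcripts of gut epithelium were present at low level and more so in the naive pools: 6 markers summed to between 23.5 and 42.5 TPM in GC and between 51.2 and 74.8 TPM in naive pools, with 4 called lower in GC B cells, among them Krt8 (-0.96, limma, adjusted p = 0.00804), and Krt18 higher. Without naive pool 1, which held the most, Poli had a log2 difference of -0.49 (limma, adjusted p = 0.0154) and Polh of 3.05. Naive pools 2 and 3 still held 51.2 and 54.7 TPM of these markers, more than any GC pool, so leaving out naive pool 1 did not test their part. The 5 myeloid markers summed to between 13.9 and 15.8 TPM in GC and between 8.74 and 14.1 TPM in naive pools. Most of the GC sum was Cd68, at 13.1 ± 1.74 TPM against 5.88 ± 1.05 TPM (SD, n = 3; 1.04, limma, adjusted p = 0.00101), while Lyz2, Itgam and Adgre1 were lower in every GC pool than in any naive pool and Csf1r was under 1 TPM in every pool. The part of these markers in the results was not tested.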

How the data were processed

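RNA-Seq of GC and naive B cells was measured in 6 pools of 5 mice. The authors used CASAVA 1.8 and FastQC, trimmed adapters with cutadapt 1.9, used RSEM 1.2.25 with a mean fragment length of 180 (SD 50) to place and quantify reads on mouse transcripts of NCBIm38 v75, and deposited FPKM per gene with 2 decimals. The submitters' notes also name edgeR, without its role. Such values hang on RSEM's transcript lengths; no counts were used here, so no count test was made. Because only 69.5 to 76.1% of low values lay within 0.15 of a whole read, depths are approximate.

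Each FPKM was divided by the sum of its pool and multiplied by 1000000 to give TPM. The test was limma's (version 3.58.1, R 4.3.3, with lmFit, eBayes with trend, no covariate, two-sided), after the filter given above, with a pseudocount of 1. The fit was also run on simulated data with few changed genes. Most genes were called here, so that run does not show how the fit does on these data. Ratios were tested with exact permutations in Python 3.11.15 (scipy 1.17.1, numpy 2.4.6, pandas 2.3.3; plots with matplotlib 3.10.9). Symbols were found for 33398 of 39179 identifiers. Coordinates and sequences are RefSeq's (GRCm38.p6); exon overlap came from an older annotation on NCBIM37. The 8 genes and all lists were chosen with earlier results of these data known. Named genes are the 8, the 2 called genes with the largest and the 2 with the smallest log2 difference of each list, and Pcna, Usp1, Pold2, Pold3, Mki67, Fas and Krt8; genes not called are named where they are few, after their values were seen, and so are Msh6, Ezh2 and the other nearest genes and the neighbours by position. A few genes named by this rule are left out of the text. Markers of B, GC, naive, T, myeloid, plasma, epithelial and stromal cells were summed. Alternatives covered the pseudocount, the filter, the scale between pools, the mean-variance trend, the replicate number as a block and each pool left out. Nothing says whether pools with the same number share mice, so the numbers were not taken as pairs in the main fit. Deviations from the group means correlated by 0.022 to 0.083 between same-numbered pools. Between pools with different numbers they correlated by -0.075 to 0.030, and these values do not settle whether mice were shared. P-values measure the spread between these pools.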

Additional observations from a re-analysis of the deposited data

How the results depend on the processing

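Of 155 alternative values of the 8 log2 differences and 5 ratios, 143 kept their direction and, where tested, their side of the threshold. The count of the 8 genes that rose was 5 or 6, that of the PCNA list 17 to 20. Polh, Poli, Polq, Rev1, Rev3l and Rad18 stayed called and Polk stayed not called in each of 15 alternatives, with log2 differences of 3.01 to 3.23 for Polh, -0.52 to -0.38 for Poli and 0.0017 to 0.26 for Polk. Mad2l2 did not pass (limma) without a filter (0.37, adjusted p = 0.0591), with FPKM as deposited (0.31, 0.0799), quantile normalization (0.28, 0.120), median-ratio size factors (0.34, 0.0786) or the replicate block (0.37, 0.0564), and ranged from 0.26 to 0.46 with each pool left out, failing without GC pool 1, GC pool 3, naive pool 1 or naive pool 2; the cause was not tested. The replicate block called 7960 genes against 8392 without it, and 5 of 6 pools correlated best with their own number; it changed no call of the other 7 genes. With each pool left out, the log2 ratio of Polq to Rev1 shifted by -0.086 to 0.197, negative without naive pool 2, and that of Rev3l to Rad18 by -0.086 to 0.050, positive without GC pool 3 (0.025) or naive pool 1; with 0.1 added to TPM the former was 0.41. Quantile normalization called 4080 genes higher and 4450 lower, against 4540 and 3852, and no scaling moved the median of all genes by over 0.1. Depth limits low genes most: Polq in naive B cells rested on about 140 to 200 estimated reads a pool, taking its longest transcript.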

Other observations

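Of 7 other DNA polymerase genes listed, 6 were tested: 3 rose, Polm fell, and Poll and Polg2 were not called, a share called near the 65.6% of all genes tested, with a median log2 difference of 0.15. The count that rose was 2 in 6 of 15 alternatives (at least 5 TPM, quantile normalization, replicate block, and without GC pool 2, GC pool 3 or naive pool 1). Polm, which encodes the end-joining polymerase Pol mu, measured 51.8, 59.2 and 57.7 TPM in GC pools 1 to 3, against 73.4, 81.3 and 72.8 TPM in naive pools 1 to 3, with no overlap (-0.42, limma, adjusted p = 0.00242). Polb, the gap filler of base excision repair, was at 31.5 ± 2.63 TPM in GC B cells against 25.6 ± 0.0453 TPM in naive ones (SD, n = 3; 0.28, limma, adjusted p = 0.0155). Polg, the mitochondrial polymerase, differed by 0.31 (limma, adjusted p = 0.0256), and Poln by 0.74 (limma, adjusted p = 0.00962) at 1.47 ± 0.266 TPM against 0.485 ± 0.235 TPM. Poln passed the filter on low values through the GC pools only, so every GC pool had to be above every naive pool. Dntt, which adds bases without a template in lymphocyte precursors, was at or near 0 in every pool.

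Genes that act with Mad2l2 at broken ends showed small differences. Of 5 genes of the 53BP1 and shieldin axis with a value, Rif1 (0.81, limma, adjusted p = 0.00112), Trp53bp1 (0.35, limma, adjusted p = 0.0298) and Champ1 (0.33, limma, adjusted p = 0.00468) rose and none fell, beside 35.5% of all genes tested that rose. The share called in either direction was no higher than the 65.6% over all genes tested. The count that rose was 2 in 5 of 15 alternatives (replicate block, and without GC pool 1, GC pool 3, naive pool 1 or naive pool 3). The shieldin subunit genes Shld1, at 9.93 ± 0.101 TPM in GC B cells against 9.32 ± 0.590 TPM in naive ones, and Shld2, at 6.41 ± 0.794 TPM and 7.38 ± 0.0608 TPM (SD, n = 3), were not called. Of 10 genes that act with or beside Pol theta at resected ends, 9 rose and Lig3 was not called, beside 35.5% of all genes tested that rose, with a median log2 difference of 1.24. Helq, a helicase gene related to Polq, was at 137 ± 6.91 TPM against 19.4 ± 2.66 TPM (2.76, limma, adjusted p = 2.22e-06). Rad50 (0.78, limma, adjusted p = 8.68e-04) and Mre11a (0.47, limma, adjusted p = 7.61e-04) rose least among those called.

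The remaining marker lists differed too, and their part in the results above was not tested. The 5 plasma cell markers summed to between 787 and 823 TPM in GC and between 219 and 252 TPM in naive pools, with Jchain the main source in GC pools and Xbp1 in naive pools, with 2 called higher and 3 lower. The 5 B cell markers summed to between 3884 and 3931 TPM and between 5783 and 5913 TPM. The 5 stromal markers summed to between 22.6 and 24.7 TPM and between 122 and 132 TPM, nearly all from Pecam1, while Col1a1 and Col1a2 were at or near 0. Fas, used in the sort, was at 114 ± 5.55 TPM and 3.22 ± 0.314 TPM.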
